A study of Mus musculus with 25 samples.

Results

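The intermediate filament genes examined were the 8 genes Des, Vim, Nes, Lmna, Lmnb1, Krt8, Krt18 and Krt80, followed in cultured mouse myoblasts, the proliferating progeny of the satellite cells of skeletal muscle. Their members were all probe sets on the 3 chips whose single platform gene symbol was one of these 8, which gave 15 of the 36701 probe sets that are not controls and 8 of the 15964 genes named by a single symbol. Growing myoblasts were wild type, MyoD-/- or p53-/-, and their RNA was hybridised to Affymetrix arrays of the chip types U74Av2, U74Bv2 and U74Cv2. The 3 samples of a genotype carry the letters A, B and C, and each had 1 array on U74Av2 and 1 on U74Cv2. On U74Bv2 wild type and MyoD-/- had 3 arrays and p53-/- had sample A alone, so that 25 arrays were used in all. Per the labels, all cultures were kept on collagen-coated plates in Ham's medium, to which 20% fetal calf serum and 4 ng/ml bFGF had been added, and other cells were removed by preplating and serial passage to a stated purity above 98%. That purity was judged by desmin, Myf5 and MyoD in wild type cells and by Myf5 and c-met in both mutants, per the labels, so desmin was a purity criterion for wild type alone. The mutant alleles, the strain and age of the mice, and whether a letter stands for a mouse or a culture were not given in the sources used here, and p-values measure only the spread between these samples.

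Intermediate filaments are rope-like polymers of coiled-coil proteins. Type III proteins such as desmin and vimentin and the type VI protein nestin form cytoplasmic networks in muscle cells: vimentin and nestin are typical of proliferating myoblasts, and desmin is the muscle filament that ties myofibrils to one another and to the membrane. Keratins are obligate pairs of a type I and a type II chain and are typical of epithelia. Lamins are the type V proteins that line the inner face of the nuclear envelope, with lamin A/C in differentiated cells and lamin B1 in nearly all cells.

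All values below are MAS5 signal intensities, a linear brightness per probe set and array that the authors deposited. Fold changes are on the scale of log2(signal + offset), and the offset is a chip type's 20th percentile of signals (66.98 on U74Av2, 145.7 on U74Bv2 and 106.6 on U74Cv2), and they understate changes of dim probe sets. A probe set was tested with limma if it exceeded the 40th percentile of the array on 3 arrays or more. Where every array of a group lay under its 40th percentile, the group has only a bound: the brighter group's mean log2 signal was set against that percentile, and the ratio is written as at least N-fold. A probe set was called changed at an adjusted p (Benjamini-Hochberg over all probe sets of the comparison) under 0.05. Of the 15 probe sets, 10 passed the filter. The other 5, which are all probe sets of Vim and Krt8, 2 of the 3 for Nes and 1 of the 2 for Krt18, were not tested. The number of arrays limits the precision of every value, and an exact two-sided permutation test of 3 arrays against 3 cannot go below p = 0.1.

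The arrays of a chip type had been scaled to a common level, and their median signals ranged from 463.9 to 565.4 (U74Av2), from 729.8 to 777.0 (U74Bv2) and from 454.0 to 545.3 (U74Cv2). The 3' to 5' ratio of the Gapdh control was 0.719 to 0.946 over all arrays and that of actin 1.01 to 1.17. Myod1 (102986_at), the gene altered in MyoD-/-, read 37440, 40169 and 45187 in wild type A, B and C, 5352, 4024 and 5152 in MyoD-/-, and 23450, 24450 and 18504 in p53-/-. The MyoD-/- arrays were the lowest and did not overlap the others. The probe set was still bright in MyoD-/-, at a mean percentile of 90.1 against 99.7 in wild type. Where it lies relative to the altered part of the gene was not examined. No probe set had Trp53 as its only symbol, so the p53-/- label could not be checked in this way. Among the 11 tested muscle lineage markers, 7 were lower and 2 were higher in MyoD-/- than in wild type, beside 13.0% of 12060 genes. The higher pair was Myf5, which rose by 2.72 ± 0.50 (log2, SE; limma adjusted p = 0.0061), and Myf6, which was under the 40th percentile on all wild type arrays and was at least 1.57-fold higher in MyoD-/- (adjusted p = 0.0106). In p53-/- 1 of 10 was higher, Myf5, by 2.99 ± 0.50 (adjusted p = 0.00486), and 3 were lower, beside 12.6% of 9013 genes.

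In MyoD-/- against wild type, 2 of the 10 tested member probe sets were called, Des lower and Krt80 higher, beside 10.6% of the 23636 probe sets tested. In p53-/- against wild type, 1 of 8 was called, Des lower, beside 10.1% of 15767. In MyoD-/- against p53-/-, 3 of 8 were called, Des and Krt18 lower and 1 Lmna probe set higher, beside 13.0% of 15767. Arrays of the compared genotypes did not overlap for 4 of 10, 4 of 8 and 3 of 8 tested member probe sets, where 29.0%, 30.9% and 30.7% of all tested probe sets had no overlap. The members' median log2 fold changes were 0.11, 0.11 and -0.12, against -0.0037, -0.024 and 0.0145 for all probe sets tested. Each count rests on few probe sets, several of them of 1 gene. The first and second comparisons share the wild type arrays.

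**Figure D1:**
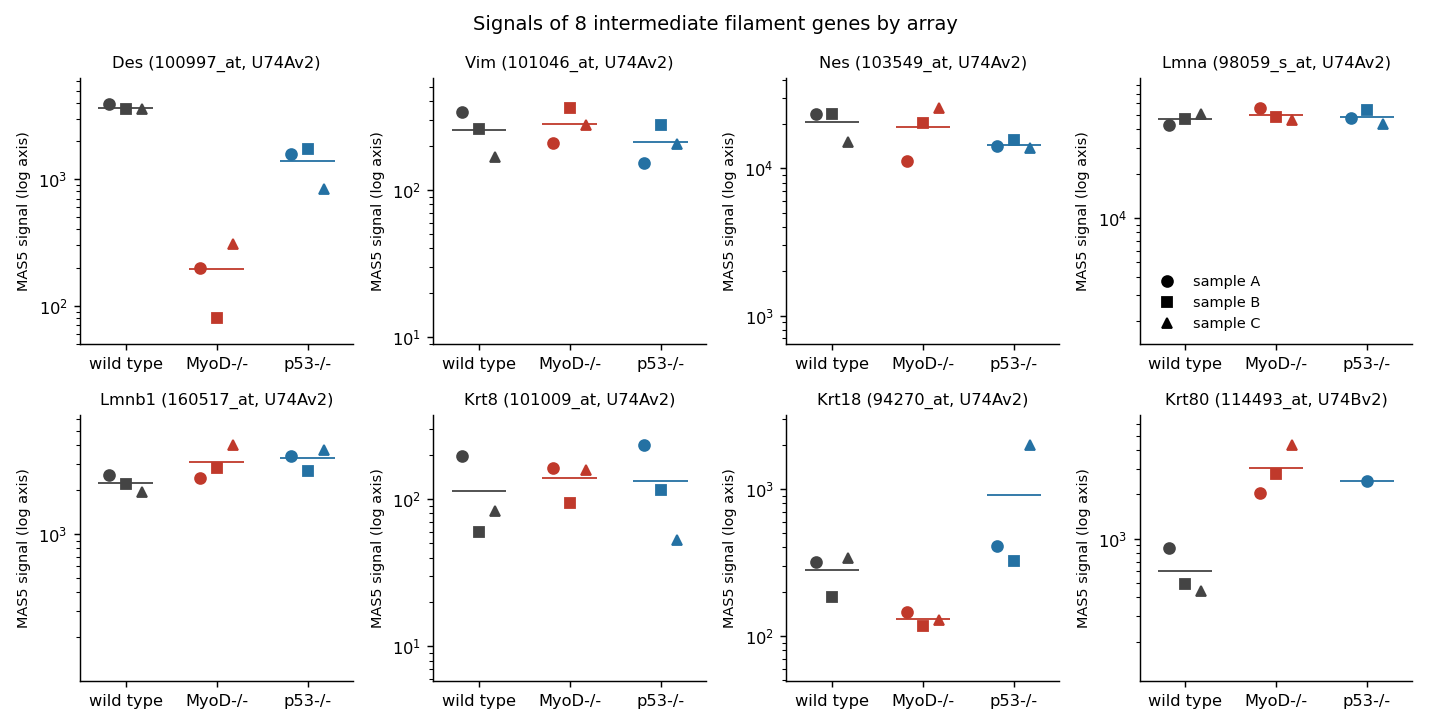
Signal of each of the 8 genes on every array, on log axes whose range differs between panels, for the representative probe set or, for Vim and Krt8, the only one. Symbols mark samples A, B and C and lines mark arithmetic means per genotype; Des falls from wild type to p53-/- to MyoD-/- with no overlap, Krt80 is higher in all 3 MyoD-/- arrays and in the single p53-/- array, and Vim, Nes and Lmna overlap between all genotypes.

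**Figure D2:**
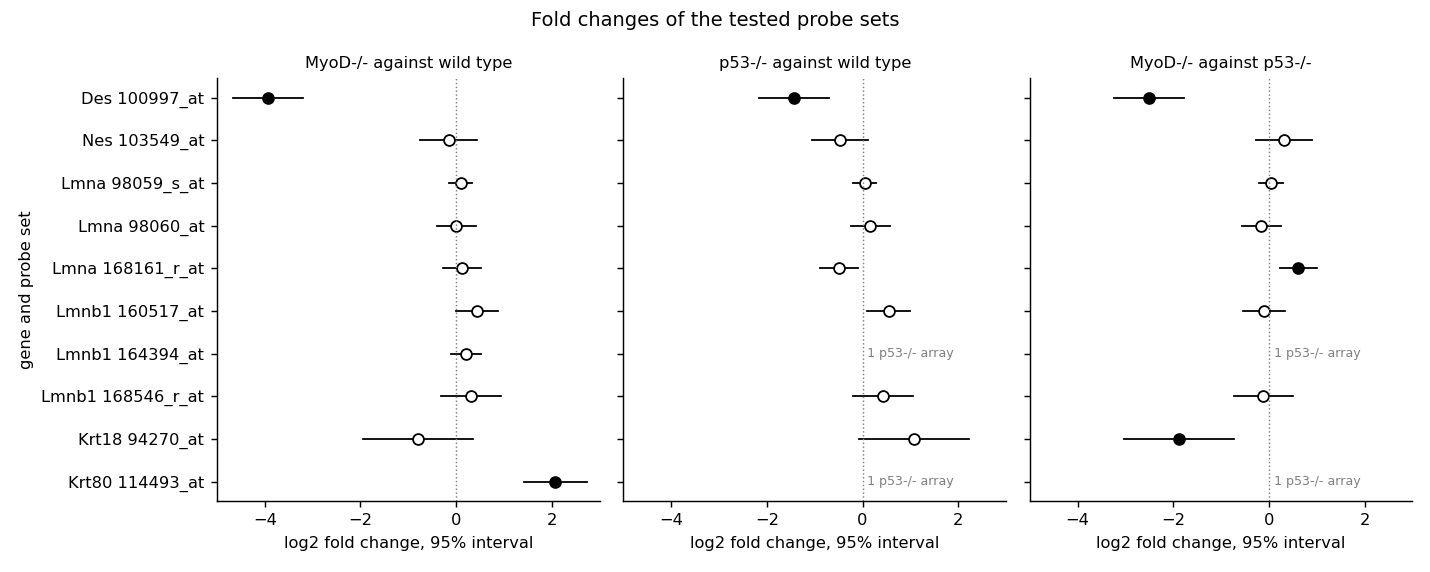
Log2 fold change of the 10 tested probe sets in the 3 comparisons, with 95% confidence intervals from limma. Filled points have an adjusted p under 0.05; the probe sets of U74Bv2 have no p53-/- comparison here because p53-/- had 1 array on that chip type.

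Desmin, encoded by Des on chromosome 1, was lower in both mutants than in wild type, and lowest in MyoD-/-. Its single probe set (100997_at) read 3897, 3560 and 3551 in wild type A, B and C. It read 199.8, 79.5 and 305 in MyoD-/- and 1583, 1726 and 839 in p53-/-. All 3 genotypes were separate: every wild type array lay above every p53-/- array, and every p53-/- array above every MyoD-/- array. The mean signals were 3669 ± 197 (SD, n = 3), 195 ± 113 and 1383 ± 476 in wild type, MyoD-/- and p53-/-. None of the 3 MyoD-/- arrays had Des above the 40th percentile of its array, at percentiles of 34.8, 23.1 and 39.3. Des was at least 12.4-fold higher in wild type than in MyoD-/- (limma adjusted p = 6.59e-05). The fitted log2 difference was -3.94 ± 0.33 (SE), and it depends on the offset because the MyoD-/- side is dim. The call held under all 22 alternatives run, with log2 values between -4.44 and -3.06, and within the scan day shared by MyoD-/- B and C with wild type the difference was -4.00.

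In p53-/- Des fell by 1.43 ± 0.33 against wild type (adjusted p = 0.0221, 95% interval -2.16 to -0.69), and the wild type mean was 2.65 times the p53-/- mean. Sample p53-/- C was the lowest of its genotype. Without p53-/- C the fall was 1.12 and the adjusted p 0.0722, and leaving out wild type A, B or C gave adjusted p-values of 0.0744, 0.0587 and 0.0543, so this call does not hold without any of those 4 samples. The difference between the mutants was tested directly: Des was at least 4.47-fold higher in p53-/- than in MyoD-/- (fitted log2 difference -2.51 ± 0.33, adjusted p = 0.000994), and this call held under all 22 alternatives. In bulk RNA, fewer cells of a type and less RNA per cell cannot be told apart. The muscle lineage list summed on U74Av2 to 17050 to 23380 in MyoD-/-, 46440 to 57590 in p53-/- and 101500 to 116400 in wild type, and without Myod1, which is in the list, to 11700 to 18220, 27940 to 33140 and 56280 to 76270. A few bright probe sets carry these sums, and the list did not move as one: besides Myod1, the genes called lower were Cdh15, Mymk, Chrna1, Met, Acta1 and Myog in MyoD-/- and Acta1 and Cdh15 in p53-/-, while Myf5 was higher in both and Ckm was called in neither. The part of cell makeup in the difference in Des was not tested.

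MyoD binds E-boxes, written CANNTG with N for any base, and the bases before the gene starts are shown for Des, whose correlation with Myod1 over the 9 arrays of U74Av2 was r = 0.984, beside Nes (r = 0.011) and Krt18 (94270_at, r = 0.43). Each window is the 250 bases before the annotated start in RefSeq's GRCm38.p6, 5′ to 3′ on the gene's strand, with every CANNTG in capitals.
Des, chr1:75360042-75360291, plus strand: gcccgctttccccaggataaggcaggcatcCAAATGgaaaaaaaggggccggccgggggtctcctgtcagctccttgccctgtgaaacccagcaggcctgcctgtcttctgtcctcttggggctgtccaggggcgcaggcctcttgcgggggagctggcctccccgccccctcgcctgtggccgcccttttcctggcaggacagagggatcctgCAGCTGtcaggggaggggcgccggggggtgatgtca
Nes, chr3:87970843-87971092, plus strand: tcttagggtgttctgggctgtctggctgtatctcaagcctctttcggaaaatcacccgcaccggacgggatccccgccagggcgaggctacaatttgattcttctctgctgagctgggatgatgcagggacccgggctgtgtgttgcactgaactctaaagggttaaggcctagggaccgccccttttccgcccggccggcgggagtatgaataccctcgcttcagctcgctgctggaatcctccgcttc
Krt18, chr15:102027966-102028215, plus strand: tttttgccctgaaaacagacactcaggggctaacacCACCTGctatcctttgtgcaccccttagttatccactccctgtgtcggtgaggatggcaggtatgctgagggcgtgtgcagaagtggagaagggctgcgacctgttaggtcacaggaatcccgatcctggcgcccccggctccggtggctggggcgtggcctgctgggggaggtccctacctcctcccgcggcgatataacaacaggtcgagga
The Des window held 2 E-boxes, CAAATG starting 220 bases before the start (-220) and CAGCTG at -36. The Nes window held 0 and the Krt18 window 1, CACCTG at -214. Of the other members with an entry, Vim held 0, both Lmna windows held 0 and Krt8 held 2 (CAATTG at -184 and CACCTG at -111). Correlations with Myod1 were r = -0.168 for Krt8 and r = -0.305 for Vim, both dim. For Lmna they were -0.22 (98059_s_at) and 0.104 (98060_at). Myod1 is itself the gene altered in MyoD-/- and the 9 arrays fall into genotypes, so these correlations restate genotype differences and are descriptions. Within wild type A, B and C, Myod1 read 37440, 40169 and 45187 and Des 3897, 3560 and 3551, in opposite order. In each mutant both genes were lowest in the same sample. Whether MyoD acts on these genes was not tested. Read on both strands, CANNTG was present in 66.2% of all 32851 windows of this length, CAGCTG, which is one of the CANNTG words, in 13.0%, and CAGGTG or its reverse CACCTG in 17.2%. A match of letters describes the window and does not show a bound site.

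The genes whose pattern was most like that of Des over the 9 arrays of U74Av2, out of 4675 other genes, were Myod1 (Pearson r = 0.984), Ccnd3, which encodes cyclin D3 (r = 0.983), and Chrnd, which encodes the delta subunit of the muscle acetylcholine receptor (r = 0.981). Ccnd3 read 8963, 9220 and 10334 in wild type, 3764, 3119.8 and 3594 in MyoD-/-, and 6225, 6989.6 and 5917 in p53-/-. Chrnd read 3321, 3522 and 3004 in wild type, 126, 34.8 and 463 in MyoD-/-, and 1250.1, 1816 and 1139.8 in p53-/-. All 4 genes had the same order of genotypes, and in MyoD-/- sample B was the lowest for each of them. The 9 arrays fall into 3 genotypes and share the extraction and chip type, so these correlations are descriptions. The other members on U74Av2 had correlations with Des between -0.43 and 0.42.

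**Figure D3:**
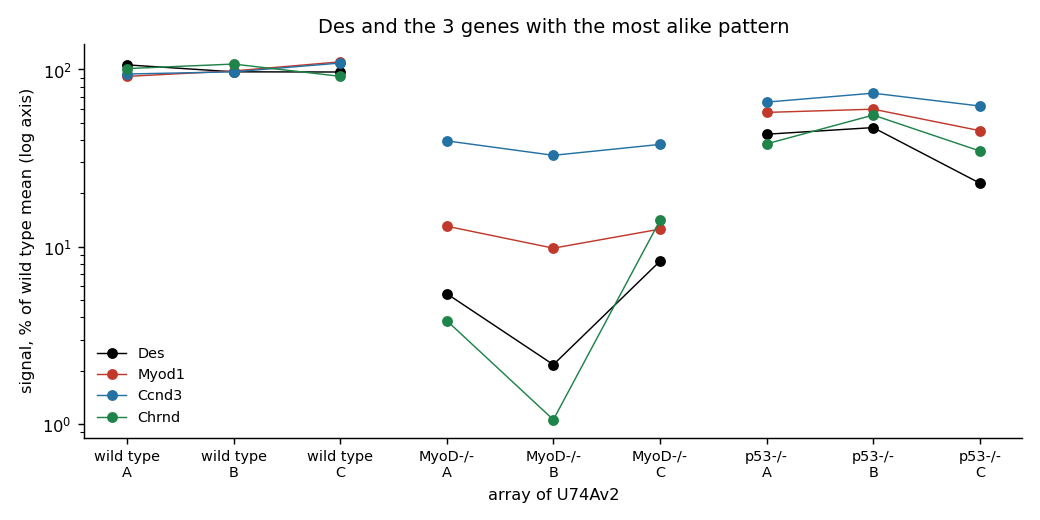
Signals of Des, Myod1, Ccnd3 and Chrnd on the 9 arrays of U74Av2 as percent of each gene's own wild type mean, on a log axis. Lines join samples of 1 genotype. All 4 genes are highest in wild type, intermediate in p53-/- and lowest in MyoD-/-. In MyoD-/- Des lies below Myod1 in all 3 samples, and Chrnd lies below Myod1 in A and B.

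Vimentin (Vim, chromosome 2), the general type III filament of mesenchymal cells, could not be followed at this signal. Its single probe set (101046_at) read 340.3, 259 and 168 in wild type, 209, 358 and 276 in MyoD-/-, and 153, 275 and 204 in p53-/-. The 3 genotypes overlapped. Only 2 of the 9 arrays, wild type A and MyoD-/- B, lay above the 40th percentile, so it was not tested, and a dim probe set does not show that the gene was silent.

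Nestin (Nes, chromosome 3), the large type VI protein that co-assembles with vimentin and desmin in muscle precursors, was bright and was not called in any comparison. Probe set 103549_at read 23298, 23322 and 15019 in wild type, 11298, 20346 and 25553 in MyoD-/-, and 14138, 15480.4 and 13767 in p53-/-. The genotypes overlapped, and MyoD-/- spread from the lowest to the highest of all 9 arrays. Nes differed from wild type by -0.16 ± 0.27 in MyoD-/- (adjusted p = 0.788, 95% interval -0.74 to 0.43) and by -0.48 ± 0.27 in p53-/- (adjusted p = 0.302, interval -1.06 to 0.11). MyoD-/- and p53-/- differed by 0.32 ± 0.27 (adjusted p = 0.505, interval -0.27 to 0.91). Sample MyoD-/- A, which was scanned on another day than the other 8 arrays, had the lowest value. Without it the difference of MyoD-/- from wild type was 0.18 in place of -0.16. Both further Nes probe sets were under the 40th percentile on every array, at 60.5 to 107 (161829_at) and 34.6 to 87.6 (169779_at), and 161829_at did not follow 103549_at (r = -0.04 over 9 arrays). The genes most like Nes were Ankrd46 (r = 0.954), Dync1i2, a dynein intermediate chain (r = 0.917), and Adcy9, an adenylate cyclase (r = 0.879).

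Lamin A/C (Lmna, chromosome 3), the A-type lamin whose human mutations cause muscular dystrophies, had 3 tested probe sets that did not give the same picture. The brightest, 98059_s_at, read 43155, 46849.5 and 50706 in wild type, 55482, 48196 and 46516 in MyoD-/-, and 47834, 54362 and 43383.5 in p53-/-. The genotypes overlapped fully and its mean percentile was 99.8. The 95% intervals were -0.15 to 0.34 for MyoD-/- against wild type, -0.20 to 0.29 for p53-/- against wild type and -0.20 to 0.29 for MyoD-/- against p53-/-. These intervals concern the signal of a probe set at the top of the arrays, and the other Lmna probe sets had wider ones. Probe set 98060_at, also on U74Av2, read 7151, 7817 and 8764 in wild type, 10677, 7208 and 6476 in MyoD-/-, and 7579, 10041 and 9098 in p53-/-. Here too the genotypes overlapped, with log2 differences of 0.0085, 0.17 and -0.16 in the 3 comparisons and adjusted p-values of 0.988, 0.645 and 0.659.

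The third Lmna probe set, 168161_r_at on U74Cv2, was lower in p53-/-. It read 3396, 3398 and 2597 in wild type, 3913, 3246 and 3062 in MyoD-/-, and 2174, 2036 and 2334 in p53-/-. Every p53-/- array lay below all arrays of both other genotypes, which overlapped each other. MyoD-/- exceeded p53-/- by 0.61 ± 0.18 (adjusted p = 0.0454, interval 0.22 to 1.0), while p53-/- against wild type was -0.49 ± 0.18 and was not called (adjusted p = 0.11). The call against MyoD-/- ended in 14 of 20 alternatives, including the removal of any 1 sample other than wild type C, with adjusted p-values from 0.0421 to 0.123 over the removals. Chip lot moves with genotype on U74Cv2, since the wild type arrays were of 1 lot, p53-/- B and C of another, and MyoD-/- B and C shared a lot with p53-/- A. Within that shared lot the difference between MyoD-/- and p53-/- was 0.51. Both Lmna probe sets of U74Av2 correlated with each other at r = 0.67 over 9 arrays. The suffix _r marks a probe set built under relaxed design rules, and _s one that can match several transcripts. The genes most like 98059_s_at were Eif4b, a translation initiation factor (r = 0.943), Plpbp (r = 0.934) and Fgfr3, a fibroblast growth factor receptor (r = 0.923).

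Lamin B1 (Lmnb1, chromosome 18), the B-type lamin that falls in senescent cells, had mean signals above wild type in both mutants on all 3 of its probe sets, and none of these differences was called. Probe set 160517_at on U74Av2 read 2501, 2184 and 1929 in wild type, 2381, 2795 and 4004 in MyoD-/-, and 3388, 2684 and 3701 in p53-/-. All p53-/- arrays lay above all wild type arrays, and MyoD-/- A lay within the wild type range. MyoD-/- exceeded wild type by 0.44 ± 0.20 (adjusted p = 0.218). For p53-/- the difference was 0.54 ± 0.20 (adjusted p = 0.117, interval 0.10 to 0.99).

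On U74Bv2, Lmnb1 probe set 164394_at read 1512, 1511 and 1417 in wild type, 1727, 1604 and 1887 in MyoD-/-, and 2125 in the single p53-/- array. The MyoD-/- arrays did not overlap wild type, but the difference of 0.21 ± 0.14 was not called (adjusted p = 0.422). On U74Cv2, 168546_r_at read 513, 774 and 730.3 in wild type, 1015, 575 and 1035 in MyoD-/-, and 951, 991 and 859.7 in p53-/-. The p53-/- arrays again lay above wild type without overlap, by 0.43 ± 0.28 (adjusted p = 0.383), and MyoD-/- overlapped, with a difference of 0.31 ± 0.28 (adjusted p = 0.573). The 3 probe sets read the same RNA samples and are not separate replicates. The mutants differed from each other by -0.11 ± 0.20 on U74Av2 and -0.12 ± 0.28 on U74Cv2, with intervals of -0.55 to 0.33 and -0.74 to 0.50. The genes most like 160517_at were Nol7, a nucleolar protein (r = 0.919), Eif5, a translation initiation factor (r = 0.915), and Csrp2, a LIM protein of smooth muscle (r = 0.899).

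**Figure D4:**
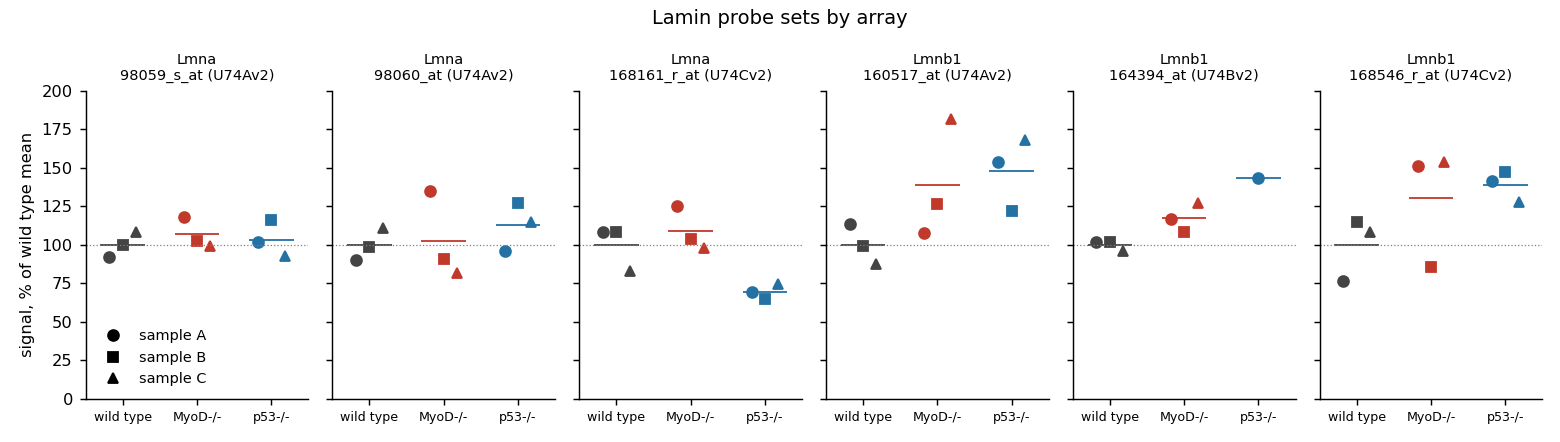
Every Lmna and Lmnb1 probe set on every array as percent of its own wild type mean, with lines at the mean of each genotype. For Lmna the third probe set alone shows p53-/- below the other genotypes, and for Lmnb1 the mutant means lie above 100% on all 3 probe sets with overlap in MyoD-/- on 160517_at and 168546_r_at.

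Among the keratins, Krt80 was higher in MyoD-/- than in wild type, Krt18 was dim in MyoD-/- and differed between the mutants by a call that many alternatives ended, and Krt8 was dim throughout. Krt80 (chromosome 15, 114493_at on U74Bv2), a type II keratin, read 861, 496 and 440.2 in wild type, 2040.4, 2748 and 4325 in MyoD-/-, and 2483 in the single p53-/- array. All MyoD-/- arrays lay above all wild type arrays, and the p53-/- array lay among those of MyoD-/-. The means were 599 ± 229 (SD, n = 3) in wild type and 3038 ± 1169.6 in MyoD-/-, a ratio of 5.07. Krt80 rose by 2.07 ± 0.29 (log2, SE) in MyoD-/- (adjusted p = 0.00229, interval 1.41 to 2.74). The call held under all 22 alternatives, with values between 1.67 and 2.34. Wild type A and the other wild type arrays were scanned on different days, and within the day on which MyoD-/- A was scanned beside wild type B and C the difference was 1.83.

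The lone p53-/- array exceeded the wild type mean in Krt80 by 1.86 on the log2 scale and lay 0.21 below the MyoD-/- mean. It has no replicate, so no test is given, and p53-/- shared no scan day with wild type on U74Bv2. For Lmnb1 (164394_at) the same array exceeded the wild type mean by 0.48. Over the 7 arrays of U74Bv2, Krt80 was most like Coa8 (r = 0.998), E130112N10Rik (r = 0.968) and Ppp2r5b, a regulatory subunit of protein phosphatase 2A (r = 0.966).

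Krt18 (chromosome 15), the type I keratin that pairs with Krt8 in simple epithelia, read 318, 185 and 341 in wild type, 145, 118 and 129 in MyoD-/-, and 406, 322 and 1981 in p53-/- (94270_at). MyoD-/- was the lowest genotype with no overlap with either other genotype, and p53-/- C stood far above p53-/- A and B. None of the MyoD-/- arrays, 2 of the wild type arrays and all p53-/- arrays lay above the 40th percentile. The probe set therefore entered the test through p53-/- and wild type, the genotypes where it is brighter. Krt18 was at least 2.16-fold higher in p53-/- than in MyoD-/- (adjusted p = 0.0394, fitted log2 difference -1.87 ± 0.52), but 9 of 21 alternatives ended this call. With no filter the adjusted p was 0.0697. Without p53-/- C the fitted difference was -1.11 (adjusted p = 0.049), and without wild type A or MyoD-/- A, B or C the adjusted p was 0.055, 0.0749, 0.108 and 0.0877. Against wild type, MyoD-/- differed by -0.79 ± 0.52 (adjusted p = 0.413). The difference of p53-/- from wild type was 1.08 ± 0.52 (adjusted p = 0.23), and neither was called. The second Krt18 probe set (162191_at) was under the 40th percentile on every array, at 3.17 to 46.2, and did not follow the first (r = -0.04). The p53-/- C array also had the lowest median signal of U74Av2, 463.9, and whether this bears on Krt18 was not tested. The genes most like Krt18 were Macroh2a1, a histone variant (r = 0.973), Ncdn (r = 0.952) and Usp7, a ubiquitin protease (r = 0.948). Each of them was also highest in p53-/- C, at 6787, 1900.6 and 5705.5. How far these correlations rest on that array was not tested.

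Krt8 (chromosome 15, 101009_at), the type II partner of Krt18, read 197, 59.6 and 82.6 in wild type, 162, 94.1 and 158 in MyoD-/-, and 233, 115 and 53.002 in p53-/-. No array had it above the 40th percentile and the genotypes overlapped. In p53-/- C, where Krt18 was highest, Krt8 was the lowest of all 9 arrays, and over the arrays the 2 keratins had r = -0.33.

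Markers of epithelial cells were set beside the keratins. Over all tested genes, 13.0% of 12060 were called in MyoD-/- and 12.6% of 9013 in p53-/- against wild type. Between the mutants 16.1% were called. Of 14 tested epithelial markers, 1 was higher and 0 were lower in MyoD-/- than in wild type, and the one was Krt19, a type I keratin of simple epithelia that is also in the mesothelial list (1 of 4 tested higher). In p53-/- against wild type 0 of 12 epithelial and 0 of 4 mesothelial markers were called by limma. The epithelial list summed on U74Av2 to 5752 to 6655 in wild type, 6156 to 9614 in MyoD-/- and 5477 to 6388 in p53-/-, with Krt19 included. On U74Cv2 the sums were 30970 to 33070, 31530 to 38660 and 30210 to 35920 in the same order. Defining epithelial markers did not all read low. Over all arrays of U74Av2, Epcam (99582_at) read 16.6 to 97.9, Krt14 (101041_at) 29.2 to 48.3 and Krt7 (97920_at) 18.1 to 154. Cdh1 (98140_at) read 1590 to 1989, and on U74Cv2 a pair of Epcam probe sets (134369_i_at and 170480_at) read 3830 to 8096, at similar levels in every genotype, so probe sets of Epcam disagree. Those of Cldn7 and Elf3 disagree too. On U74Cv2, Cldn7 129927_i_at read 12250 to 17540 and Elf3 169545_r_at 5882 to 7752. On U74Av2, Cldn7 99561_f_at read 6.88 to 18 and Elf3 99059_at 160.5 to 264.4. Ovol1 164229_at on U74Bv2 read 5154 to 7990. Fibroblast markers had 2 of 6 higher in MyoD-/- against wild type and against p53-/-, Col1a1 and Twist2, and the list summed to 38510 to 49010 in MyoD-/-, 21670 to 24700 in wild type and 19100 to 24530 in p53-/-. Without Col1a1 these sums were 21110 to 27960, 20410 to 23530 and 18170 to 23060. By the probe set that stood for each, Col3a1, Col1a2, Fbln1 and Pdgfra were not called in any comparison. Another Col1a2 probe set, 101130_at, read 66.8 to 96.5 in wild type, 566 to 1074 in MyoD-/- and 104 to 1316 in p53-/-. The probe sets of Col1a2 therefore disagree. Pdgfrb, which was not tested, read 21.08 to 26.05, 264.6 to 388.9 and 81.7 to 153.5 in the same order. The other untested fibroblast markers overlapped between wild type and MyoD-/-. Smooth muscle markers had 0 of 6 called in MyoD-/- and 2 of 5 lower in p53-/-, Acta2 and Smtn. Between the mutants 3 of 5, Acta2, Smtn and Tagln, were higher in MyoD-/-. Another tested Acta2 probe set, 135098_at, was called neither in p53-/- (-0.10, adjusted p = 0.933) nor between the mutants (1.42, adjusted p = 0.0876). Of macrophage markers 1 of 3, Cd14, was higher in MyoD-/-, and endothelial markers (1 tested) and Schwann cell and neural markers (4 tested) had 0 called. The part of these cells in the keratin values was not tested.

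Among 29 tested genes of the other intermediate filament list, 1 was higher and 2 were lower in MyoD-/- than in wild type, beside 13.0% of 12060 genes, and the median log2 fold change was 0.061 against -0.00078 for all genes. Krt19 (92550_at) read 15.4, 16.4 and 22.3 in wild type, 640.0, 1396 and 3040.0 in MyoD-/-, and 361, 40.3 and 20.2 in p53-/-. All MyoD-/- arrays lay above all others, and it passed the filter through MyoD-/-, with all wild type arrays and 2 of 3 p53-/- arrays under the 40th percentile. Krt19 was at least 4.60-fold higher in MyoD-/- than in wild type (adjusted p = 0.00194). Against p53-/- the fitted log2 difference was 3.22 (adjusted p = 0.00738), and both calls held under all 21 alternatives. Its second probe set, 102121_f_at, was dim and was not tested. It too was highest in MyoD-/-, at 28.8 to 226 and a mean percentile of 19.2, against at most 14.9 in the other genotypes. Krt10, a keratin of differentiated epidermis, fell by 0.82 ± 0.21 (adjusted p = 0.0332) and Lmnb2, the second B-type lamin, by 0.82 ± 0.23 (adjusted p = 0.0467) in MyoD-/-.

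Comparing p53-/- with wild type, 1 of 26 tested genes of that list was lower, beside 12.6% of 9013 genes, with a median of -0.11 against -0.0082. It was Krt36, a hair keratin, which fell by 1.07 ± 0.30 on 161052_r_at (adjusted p = 0.0495). Another tested Krt36 probe set, 170257_i_at on U74Cv2, was also called lower (-1.65 ± 0.375, adjusted p = 0.0195). Between the mutants 1 of 26, Krt19, was higher and 1, Lmnb2, was lower in MyoD-/-, beside 16.1% of genes, with a median of 0.12 against 0.0037. Lmnb2 read 2647, 1879 and 2323 in wild type, 1833, 1127 and 945 in MyoD-/-, and 3186, 2454 and 2419.5 in p53-/-. The MyoD-/- arrays lay below all others, and the difference from p53-/- was -1.05 ± 0.23 (adjusted p = 0.0139). The calls for Krt10, Lmnb2 against wild type and Krt36 161052_r_at ended under 9 of 22, 12 of 22 and 17 of 21 alternatives.

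Of the proteins that link, fold or modify cytoplasmic filaments, 0 of 25 tested were higher and 4 were lower in MyoD-/- than in wild type, beside 13.0% of all genes, with a median of 0.061 against -0.00078. Cdk5r1, the activator of the kinase Cdk5, which phosphorylates nestin, fell by 1.61 ± 0.22 on its brightest probe set, 162928_f_at (adjusted p = 0.00188). Its other 3 tested probe sets differed by 0.070, -0.011 and -0.49 and were not called (adjusted p = 0.908, 0.982 and 0.236), so the probe sets of Cdk5r1 disagree. Macf1, a large protein that connects microtubules and actin, fell by 0.68 ± 0.14 (adjusted p = 0.0106), and Mtm1, a phosphoinositide phosphatase reported to bind desmin in human cells, fell by 1.31 ± 0.35 on 98524_f_at (adjusted p = 0.0361). Of the other Mtm1 probe sets, 96199_at differed by 0.31, 111331_at by -0.96 and 169980_i_at by 0.0029, and none was called. The fourth, Jup (plakoglobin), fell by 0.67 ± 0.18 (adjusted p = 0.0397) and is named here after its values were seen. Other tested probe sets of Macf1 (134288_at) and Jup (137020_at) differed by -1.155 ± 0.639 and -0.937 ± 0.49 and were not called (adjusted p = 0.318 and 0.288). Cdk5r1 162928_f_at was called in all 21 alternatives and Macf1 98402_at in 21 of 22. The calls for Mtm1 and Jup ended under 10 of 21 and 9 of 22.

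Of these linker genes, 1 of 21 was higher in p53-/- than in wild type and 3 were lower, beside 12.6% of all genes, with a median of -0.20 against -0.0082. Cryab, the small heat shock protein that chaperones desmin, read 2089.6, 1805 and 1473.5 in wild type, 1973, 4691 and 3894 in MyoD-/-, and 426, 647 and 423 in p53-/-. All p53-/- arrays lay below all others. Cryab fell by 1.72 ± 0.29 in p53-/- against wild type (adjusted p = 0.00501) and was 2.60 ± 0.29 higher in MyoD-/- than in p53-/- (adjusted p = 0.00045). Both calls held under all 21 alternatives that kept its probe set, 162308_f_at. The alternative without suffixed probe sets leaves it out, so whether the signal is particular to Cryab was not tested. Pkp4, a relative of the plakophilins, rose by 0.79 ± 0.17 (adjusted p = 0.0167), and Jup fell by 0.78 ± 0.18 (adjusted p = 0.0216). Another tested Jup probe set, 137020_at, differed by -1.121 ± 0.49 and was not called (adjusted p = 0.184). Cdk5, named after its values were seen, fell by 0.65 ± 0.16 (adjusted p = 0.0258). The calls for Pkp4, Jup and Cdk5 in p53-/- against wild type ended under 3, 4 and 5 of 22 alternatives. Between the mutants 3 of 21 were higher and 1 was lower in MyoD-/-, beside 16.1% of all genes, with a median of 0.11 against 0.0037. Besides Cryab, Cdk5 was higher by 0.97 ± 0.16 (adjusted p = 0.0031). Mtm1 gave opposite calls: 98524_f_at was lower (-2.36 ± 0.35, adjusted p = 0.00171) and 96199_at higher (0.79 ± 0.21, adjusted p = 0.031) in MyoD-/-, so no direction is given for the gene. Fam83h, which organises keratin filaments in human cells and is named after its values were seen, was higher by 0.73 ± 0.21 (adjusted p = 0.0478), and that call ended under 13 of 22 alternatives.

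Among 24 tested partners of the lamins at the nuclear envelope, 4 were higher and 1 was lower in MyoD-/- than in wild type, beside 13.0% of all genes, with a median of 0.059 against -0.00078. Tor1aip1 (LAP1), an inner membrane protein that binds lamins, rose by 0.74 ± 0.175 (adjusted p = 0.0279). Tor1a, the ATPase that Tor1aip1 activates, rose by 0.67 ± 0.16 (adjusted p = 0.0304), and Lbr, the lamin B receptor, by 0.62 ± 0.16 (adjusted p = 0.0305). The fourth was Tmem43, an inner membrane protein, which rose by 0.80 ± 0.21 (adjusted p = 0.0352) and is named after its values were seen, and the gene that fell was Lmnb2, given above. Each of these 4 higher calls, on the probe sets that stand for the genes, ended under 6 to 9 of 22 alternatives. Another tested probe set of Tor1aip1, 114654_at, was also called higher (0.94 ± 0.13, adjusted p = 0.00217). Another of Lbr, 163452_at, was not called (0.56 ± 0.16, adjusted p = 0.0633).

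Of 18 lamina partners tested in p53-/- against wild type, 2 were higher and 0 were lower, beside 12.6% of all genes, with a median of 0.057 against -0.0082. Lbr read 3047, 2922.5 and 2753 in wild type, 4698, 3719.8 and 5243 in MyoD-/-, and 5539.6, 4044 and 4899 in p53-/-. Both mutants lay above wild type without overlap, and the rise in p53-/- was 0.71 ± 0.16 (adjusted p = 0.0185). The call of Lbr in p53-/- ended under 4 of 22 alternatives. Banf1, which tethers chromatin to lamins and LEM proteins, rose by 0.47 ± 0.0875 (adjusted p = 0.00818) in p53-/-, and that call held under all 22 alternatives. Between the mutants 1 of 18 was higher and 2 were lower in MyoD-/-, beside 16.1% of all genes, with a median of 0.062 against 0.0037. Tmem43 was higher by 1.01 ± 0.21 (adjusted p = 0.0108), and Nup153, a nuclear pore protein that binds lamins, was lower, by -1.29 ± 0.25 (adjusted p = 0.00781). Nup153 read 1574, 1172 and 2347 in MyoD-/- and 4216, 3694 and 4606 in p53-/-, without overlap.

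**Figure D5:**
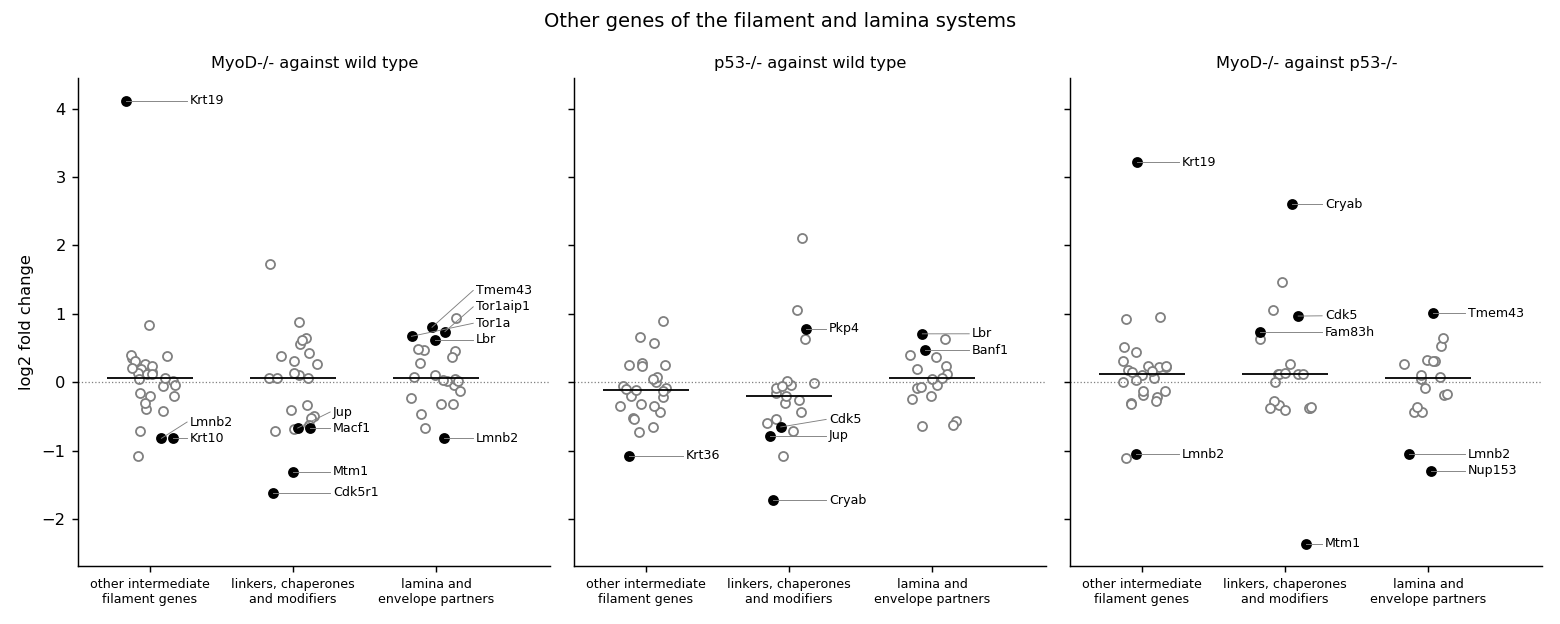
Log2 fold change of each tested gene in the 3 lists, by its representative probe set, in the 3 comparisons. Filled and named points have an adjusted p under 0.05 and lines mark the list medians; points of dim genes such as Krt19 are fitted values and not bounds, Krt19 stands highest in both comparisons of MyoD-/-, and Cryab lies low in p53-/- against wild type and high in MyoD-/- against p53-/-.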

How the data were processed

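RNA of 9 samples of growing mouse myoblasts was measured on 25 Affymetrix arrays. The authors deposited linear signal intensities made with MAS5, per the submitters' processing notes, with 1 value for each probe set on each array. Its version and scaling target were not given in the sources used here. Among them, 66 control probe sets of each chip type were left out of the tests.

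Signals were turned into log2(signal + 20th percentile of the chip type) and each chip type was fitted on its own in R 4.3.3. The fit used limma 3.58.1 with a trend in eBayes, all arrays of the chip type, and no term but genotype. P-values were two-sided. A limma p assumes the fit's pooled spread. Gene symbols came from the platform annotation: of 36701 probe sets, 29131 had 1 symbol, 724 had several and 6846 had none. For each gene, the tested probe set that had the highest mean percentile stood for it.

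Named genes were the 8 members with every probe set, up to 3 called genes of each list and comparison by smallest adjusted p, the 3 genes most like each tested member by Pearson's r, and Myod1. Members, lists and tests were chosen with earlier results of these data known. The fit was tested on simulated data. Alternatives changed the offset, filter, normalization, trend, arrays used, scan day, replicate block, probe sets and each sample in turn. Promoter windows came from RefSeq.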

Additional observations from a re-analysis of the deposited data

How the results depend on the processing

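With 3 arrays in a group, and 1 for p53-/- on U74Bv2, small differences are not resolved, dim probe sets (Vim, Krt8, and Des and Krt18 in MyoD-/-) carry little signal over background, and the scan day, chip lot and genotype overlap on U74Bv2 and U74Cv2. The cause of the changes below was not tested. No pairing by letter was seen in the deviations from the genotype means. Same-lettered samples of different genotypes had correlations of -0.12 to 0.127 on U74Av2 and -0.0434 to 0.064 on U74Cv2. Those with different letters had -0.124 to 0.0962 and -0.105 to 0.111. With 3 arrays per genotype and letters of unknown meaning, this cannot exclude that samples were paired. With the replicate block, 2 member probe sets were called in MyoD-/- and 1 in p53-/- against wild type, and 2 between the mutants, and the block ended the call of Lmna 168161_r_at between the mutants (0.61, adjusted p = 0.0693), and no other member's call. In MyoD-/- against wild type 2 members were called under all 22 alternatives. In p53-/- against wild type 0 were called with no offset or a floor, where Des read -1.475 with adjusted p-values of 0.0559 and 0.0552, and 0 to 1 when 1 sample was left out, where Des ranged from -1.61 to -1.12. Between the mutants 1 was called with no filter, no trend, only the 2 genotypes compared or scan day as a block, and 1 to 3 when 1 sample was left out. There Krt18 lost its call with the offset at the 40th percentile (-1.23), no filter (-1.87), no trend (-1.87), only the 2 genotypes (-1.89) and scan day as a block (-1.92), and ranged from -2.33 to -1.11 with 1 sample left out. Lmna 168161_r_at lost it with no filter (0.61), median scaling (0.53), no trend (0.61), only the 2 genotypes (0.61) and scan day as a block (0.51), and ranged from 0.51 to 0.68. Lmna 98059_s_at was called between the mutants after quantile normalization (0.22, adjusted p = 0.0383), and turned sign with median scaling (-0.054), with scan day as a block or without MyoD-/- A (-0.029), and without p53-/- C (-0.031), in a leave-one-out range of -0.031 to 0.13. In p53-/- against wild type it turned sign after quantile normalization (-0.13), without wild type A (-0.012) and without p53-/- B (-0.039), in a range of -0.039 to 0.12. In MyoD-/- against wild type, Nes turned to 0.18 with scan day as a block or without MyoD-/- A (range -0.41 to 0.18), Lmna 98060_at to -0.016 after quantile normalization, -0.20 with scan day as a block or without MyoD-/- A and -0.061 without wild type A (range -0.20 to 0.15), and Lmna 168161_r_at to -0.0035 without wild type C (range -0.0035 to 0.19). Between the mutants Lmnb1 160517_at turned to 0.050 with scan day as a block or without MyoD-/- A (range -0.32 to 0.050), and 168546_r_at to 0.12 without MyoD-/- B (range -0.25 to 0.12). None of these turned values was called. Krt80 in the lone p53-/- array, a value with no test, was 1.38 above wild type with scan day as a block and 1.71 to 2.09 when 1 sample was left out, and Lmnb1 there was 0.41 above wild type with the offset at the 40th percentile. Over all probe sets 1452 to 2632, 868 to 1882 and 1267 to 2064 were called under the alternatives against 2514, 1599 and 2045. Median scaling moved the share of higher calls from 47.3% to 63.9% in p53-/- against wild type and from 47.8% to 37.0% between the mutants. The alternatives for the gene lists were chosen after seeing the data.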
